A study of Rattus norvegicus with 11 samples.

Results

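The unfolded protein response and the folding machinery of the endoplasmic reticulum (ER) were described here through 32 genes of 17257 in a table of expression in rat heart muscle cells. They were matched by symbol from a list drawn up with earlier results of these data known. The table held a row for 30 of them. Derl2 and Edem1 had none and are not analysed here. The total RNA came from ventricular myocytes of wild-type Sprague Dawley rats aged 3 to 4 months, 5 female and 6 male animals, each a biological replicate per the series' design text. Hearts were perfused on a Langendorff apparatus, and the cells were plated for 45 minutes with no treatment before freezing, in both sexes alike. The design asked how gene expression in these contractile cells differs by the sex of the animal, and the files hold neither an induced ER stress nor a comparison of plated with unplated cells.

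Proteins that are secreted or set in membranes are threaded into the ER through a translocon, folded there by chaperones and disulfide-forming enzymes, and, when misfolded, sent back out for destruction by ER-associated degradation (ERAD). When misfolded protein accumulates, the sensors IRE1 (Ern1), PERK (Eif2ak3) and ATF6 switch on the unfolded protein response. IRE1 splices the mRNA of Xbp1, PERK slows translation while favouring that of ATF4, and ATF6 is cut to release a transcription factor. In heart muscle the ER is continuous with the sarcoplasmic reticulum, which stores the calcium for contraction, and several of these chaperones bind calcium. The values below are mRNA levels summed over all transcripts of a gene, so they show neither the splicing of Xbp1 nor the translation of ATF4 nor the cutting of ATF6.

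Of the 30 genes measured, 5 were higher and 2 lower in females in the authors' deposited table (adjusted p under 0.05), and 23 did not pass. Those higher were Xbp1, Hyou1, Herpud1, Syvn1 and Chac1, and those lower were Canx and Dnajc3. The share called was 23.3%, against 14.5% of all 13346 genes with a mean above 0, a description only, given how the list was drawn up. These sets are not of like genes, since 27 of the 30 members and 9116 of the 13346 genes had a mean of at least 50. Shares of other lists below are set against the same 13346 genes, with no matching by mean. In the direction of females 16.7% of the members were called, against 6.71% of all genes, and in the direction of males 6.67%, against 7.76%. The median log2 fold change (female over male) was 0.08 over the 30 members and -0.01 over all genes. No sensor, oxidative folding enzyme or translocon member passed, and of the 4 ERAD members measured 2 did, both higher in females. Among the 10 sensors, folding enzymes and translocon members, Ssr1 alone had an unadjusted p under 0.05 (0.0121) in the authors' deposited table.

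**Figure D1:**
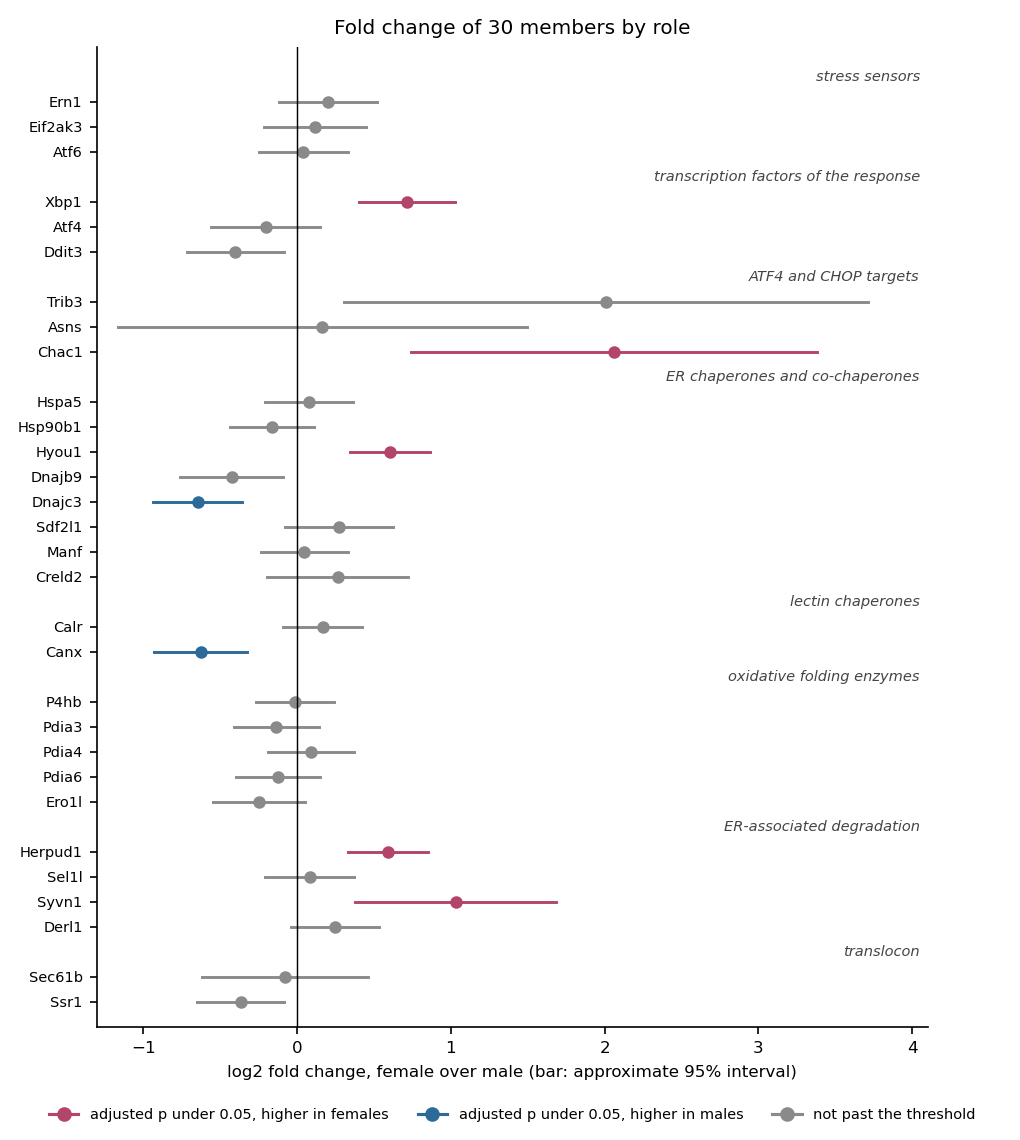
Log2 fold change, female over male, of 30 members grouped by role, as given in the authors' deposited table; bars are approximate 95% intervals computed from the dispersion and are not adjusted for the number of genes. The 5 genes called higher in females lie between 0.59 and 2.06, the 2 called lower lie at -0.63 and -0.65, and the widest bars belong to Trib3, Asns and Chac1, the members with the fewest reads.

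For 14 members the whole reads of each library could be worked out from the digits of the group means and the p-value, and for 6 more those of the female libraries alone. These are given as normalized reads, which are whole reads divided by the size factor of the library, with the mean ± SD over libraries. The libraries are known by sex and size factor and carry letters in order of falling size factor, since the table does not link them to the replicate numbers of the labels. Across 4591 genes whose reads were recovered in every library, which held 1098339 to 1581991 reads per library, the leading component (33.9% of the variance) separated the sexes except for one library of each. Female b had a weight of 0.011 on it and male d one of 0.087, against 0.271 to 0.413 in the other females and -0.428 to -0.205 in the other males. Eif2s3y, a Y-linked gene, had 0 or 1 whole reads in each female library, 1 in female b, and 1439 to 3174 in the male libraries, 1439 in male d, in keeping with the sex of each library. Results that rest on reads per library are therefore also given without female b and male d. Since these were singled out by lying between the sexes in the same reads, a clearer separation without them is built into that choice.

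Some markers of other heart cells differed by sex in the same libraries. Of 10 fibroblast markers, 9 were measured, and 4 were lower in females (Col3a1, Postn, Fap and Col1a1), 44.4% against 14.5% of all genes. Not called were Pdgfra, Dcn, Lum and Ddr2, with log2 fold changes below 0, and Tcf21, above 0 (0.17). Col1a2 was listed at 0, all in the authors' deposited table. The summed means of the 9 were 9178 in females and 18438 in males, Col3a1 and Dcn having the highest means. Those 2 were not among the 7 fibroblast markers recovered in every library. The summed normalized reads of these 7 ran from 766 to 1796 in females and from 1323 to 2689 in males. Their exact permutation p was 0.0281 (two-sided), and they stood at 1149 in female b and 1900 in male d. Of 6 mesothelial markers measured, 2 were higher in females (Krt19 and Msln) in the authors' deposited table, 33.3% against 14.5% of all genes. Without a call, Krt8 and Upk1b had log2 fold changes above 0, and Wt1 (-0.30) and Krt18 (-0.01) below 0. The summed normalized reads of all 6 ran from 731 to 977 in females and from 535 to 768 in males. Their exact permutation p was 0.00866, and they stood at 977 in female b and 659 in male d. All 10 cardiomyocyte markers were measured, with none listed at 0. Myh6 and Ryr2 were called higher in females and none lower in the authors' deposited table, 2 of 10 against 14.5% of all genes. The summed means were 4357981 in females and 3631441 in males. Myh6 made the largest difference between these sums, with means of 1330868 in females and 831771 in males. Tnnt2 and Pln, not called, had log2 fold changes below 0 (-0.03 and -0.20). All other cardiomyocyte markers had log2 fold changes above 0, Myl2 at 0.0016. Among the other lists, 2 endothelial markers were higher and 1 lower in females, 1 of 10 macrophage and leukocyte markers was lower, and 0 of 10 smooth muscle and pericyte markers and 0 of 5 plasma cell markers passed (2 and 0 at an unadjusted p under 0.05) in the authors' deposited table. Their part in the results below was not tested, and in bulk RNA fewer cells of a type and less RNA per cell cannot be told apart.

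The promoters of several members carry the letters that ATF6, spliced XBP1 and ATF4 are known to bind. They are shown because members with the same element did not all move the same way. RefSeq windows of the assembly GRCr8, from 250 bases before to 50 after each transcription start, were found for 25 of the 32 genes and searched on both strands for 4 motifs. The ER stress element ERSE (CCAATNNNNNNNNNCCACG), bound by ATF6 or XBP1 with NF-Y, occurred at 7 members and at 21 of 27457 genes (0.0765%). Its relative ERSE-II (ATTGGNCCACG) occurred at 2 members and 17 genes (0.0619%), the XBP1 and ATF6 element UPRE (TGACGTGG) at 1 member and 187 genes (0.681%), and the ATF4 element CARE (TGATGNAA) at 3 members and 1141 genes (4.16%). ERSE and ERSE-II are built from the same pieces in another arrangement. A match is a description of the letters and not a mapped binding site.

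The 250 bases before the start of 4 genes that were higher in females are shown 5′ to 3′ on the strand of the gene. The fixed letters of the matches are in capitals. No match was found for Syvn1, also called higher. Canx and Dnajc3, called lower, have ERSE matches too, given after these. Xbp1 (chr14:84604373-84604622, plus strand) holds an ERSE. Herpud1 (chr19:10614708-10614957, minus strand) holds a CARE on the opposite strand and, nearer the start, an ERSE-II. Hyou1 (chr8:53602632-53602881, plus strand, the first of its 2 windows) holds a UPRE that runs into an ERSE-II on the opposite strand, and a further ERSE-II nearer the start. Chac1 (chr3:126795881-126796130, plus strand) holds a CARE on the opposite strand.
Xbp1: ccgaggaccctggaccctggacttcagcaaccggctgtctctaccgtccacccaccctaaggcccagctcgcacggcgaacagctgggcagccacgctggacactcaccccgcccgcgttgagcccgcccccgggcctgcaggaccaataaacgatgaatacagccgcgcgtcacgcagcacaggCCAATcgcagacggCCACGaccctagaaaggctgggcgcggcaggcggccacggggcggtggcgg
Herpud1: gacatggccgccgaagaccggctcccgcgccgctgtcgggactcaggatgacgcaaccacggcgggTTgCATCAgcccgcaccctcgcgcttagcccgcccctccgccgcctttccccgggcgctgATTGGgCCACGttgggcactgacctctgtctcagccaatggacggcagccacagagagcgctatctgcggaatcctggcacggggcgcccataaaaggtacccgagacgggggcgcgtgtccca
Hyou1: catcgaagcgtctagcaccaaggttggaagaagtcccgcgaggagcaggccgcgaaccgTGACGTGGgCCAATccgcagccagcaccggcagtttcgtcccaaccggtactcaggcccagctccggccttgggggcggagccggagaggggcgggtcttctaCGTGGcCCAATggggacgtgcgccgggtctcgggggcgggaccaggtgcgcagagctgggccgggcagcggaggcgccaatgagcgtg
Chac1: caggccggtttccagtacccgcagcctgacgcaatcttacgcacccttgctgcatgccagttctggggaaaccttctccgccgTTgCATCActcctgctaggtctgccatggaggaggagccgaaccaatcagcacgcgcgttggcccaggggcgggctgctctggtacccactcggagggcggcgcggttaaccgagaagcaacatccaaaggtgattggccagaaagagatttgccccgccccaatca

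The ERSE matches of the 7 members are set under each other below, read in the direction of the motif, with the fixed letters in capitals and the spacer in lower case. Hsp90b1 has a pair of them.
Xbp1: CCAATcgcagacggCCACG
Canx: CCAATcatcacgctCCACG
Dnajc3: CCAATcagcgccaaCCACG
Calr: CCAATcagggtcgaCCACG
Creld2: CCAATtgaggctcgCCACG
Hspa5: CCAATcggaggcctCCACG
Hsp90b1, match at the far end: CCAATcgaaaggagCCACG
Hsp90b1, match at the near end: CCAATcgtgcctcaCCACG
Of these 7 genes, Xbp1 was higher in females, Canx and Dnajc3 were lower, and Calr, Creld2, Hspa5 and Hsp90b1 did not pass in the authors' deposited table, with a median log2 fold change of 0.08. Both genes with ERSE-II, Herpud1 and Hyou1, were higher in females. Of all genes, 14.5% were called in either direction and 6.71% higher in females. These members come from a list drawn up with earlier results known, and a link of an element to a direction was not tested. CARE matches stood at Chac1, Herpud1 and Trib3.

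Among the sensors, all 3 log2 fold changes were above 0 and none passed; that of Atf6 was -0.02 with the sexes scaled to equal sums over rows named by a symbol. Ern1, the kinase and RNase of the IRE1 arm, had 788, 742, 586, 631 and 677 normalized reads in the female libraries a to e, and 439 at lowest, 598 at the median and 769 at highest in the males. The sexes overlapped, with 1 female above every male and 3 males below every female. Means were 685 ± 81.5 in females and 596 ± 119 in males (SD, n = 5 and 6), with an exact permutation p of 0.188 (two-sided), and adjusted p 0.523 in the authors' deposited table. Eif2ak3, which encodes PERK, had 507, 503, 605, 610 and 554 normalized reads in the females and 413, 527 and 559 at the lowest, median and highest in the males. Its sexes overlapped as well, at 556 ± 51.3 in females and 513 ± 53.8 in males (SD, n = 5 and 6), with an exact permutation p of 0.214. Atf6 had 1059, 1197 and 1224 normalized reads at the lowest, median and highest in the females. Its means were 1158 in females and 1125 in males in the authors' deposited table (adjusted p 0.963), and the approximate 95% interval of the log2 fold change ran from -0.25 to 0.33.

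Of the transcription factors of the arms, Xbp1 alone was called. Xbp1, the factor downstream of IRE1, was higher in females. It had 3866, 2628, 4474, 4005 and 4548 normalized reads in the female libraries a to e, and 2086 at lowest, 2315 at the median and 2900 at highest in the males. Of the females 4 stood above every male, and only female b fell within the male range, below male d, which was the highest male at 2900. Means were 3904 ± 771 in females and 2379 ± 284 in males (SD, n = 5 and 6), a log2 fold change of 0.71 or 1.64-fold, with an exact permutation p of 0.00433 and adjusted p 0.000794 in the authors' deposited table. Without female b and male d the log2 fold change was 0.89 and the sexes did not overlap.

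Ddit3 encodes CHOP, the factor tied to cell death in prolonged stress. It had 1277, 1400, 1046, 1525 and 1370 normalized reads in the females and 1160, 1841 and 2159 at the lowest, median and highest in the males. The 5 males other than male d lay above every female, and male d lay below 4 of the 5 females. Means were 1324 ± 179 in females and 1750 ± 349 in males (SD, n = 5 and 6), with an exact permutation p of 0.0368 and adjusted p 0.0675 in the authors' deposited table, so the gene was not called. Without female b and male d the log2 fold change was -0.52, and all 5 remaining males lay above the 4 remaining females. Atf4, the factor made under PERK, had means of 6361 in females and 7332 in males in the authors' deposited table, with a log2 fold change of -0.21 and adjusted p 0.544.

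The 3 members grouped as targets of ATF4 and CHOP had few reads. Chac1, a glutathione-degrading enzyme induced through ATF4, was higher in females, with 32.6, 16.3, 19.1, 15.4 and 44.3 normalized reads in the female libraries a to e, and 1.22, 3.71 and 19.6 at the lowest, median and highest in the males. The 5 males other than male d lay below every female, and male d at 19.6 lay above 3 of the females. Means were 25.5 ± 12.5 in females and 6.12 ± 7.09 in males (SD, n = 5 and 6), a 4.17-fold difference with an approximate 95% interval of 0.74 to 3.38 on the log2 scale. The exact permutation p was 0.0108, and adjusted p 0.0309 in the authors' deposited table. Without female b and male d the means were 27.9 in females and 3.42 in males, a log2 fold change of 3.02 against 2.06 with all libraries.

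Trib3, a pseudokinase induced by CHOP and ATF4, had 26.4, 15.4, 12.4, 19.5 and 1.03 normalized reads in the females and 0, 3.04 and 9.29 at the lowest, median and highest in the males. The females a to d lay above every male, and female e lay among the lowest males. Means were 15 ± 9.40 in females and 3.72 ± 3.43 in males (SD, n = 5 and 6), with an exact permutation p of 0.0303, while adjusted p 0.125 in the authors' deposited table did not pass. Without female b and male d its log2 fold change was 2.51, against 2.01 with all libraries, with an exact permutation p of 0.0476. Female e was the highest female for Chac1 and the lowest for Trib3. Asns, asparagine synthetase, had 7.93, 19.0, 17.2, 4.11 and 25.7 normalized reads in the females and 6.10, 13.4 and 21.3 at the lowest, median and highest in the males. The sexes covered the same range (exact permutation p 0.734), and the approximate 95% interval of the log2 fold change, -1.17 to 1.49, spans more than that of any other member apart from Trib3.

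**Figure D2:**
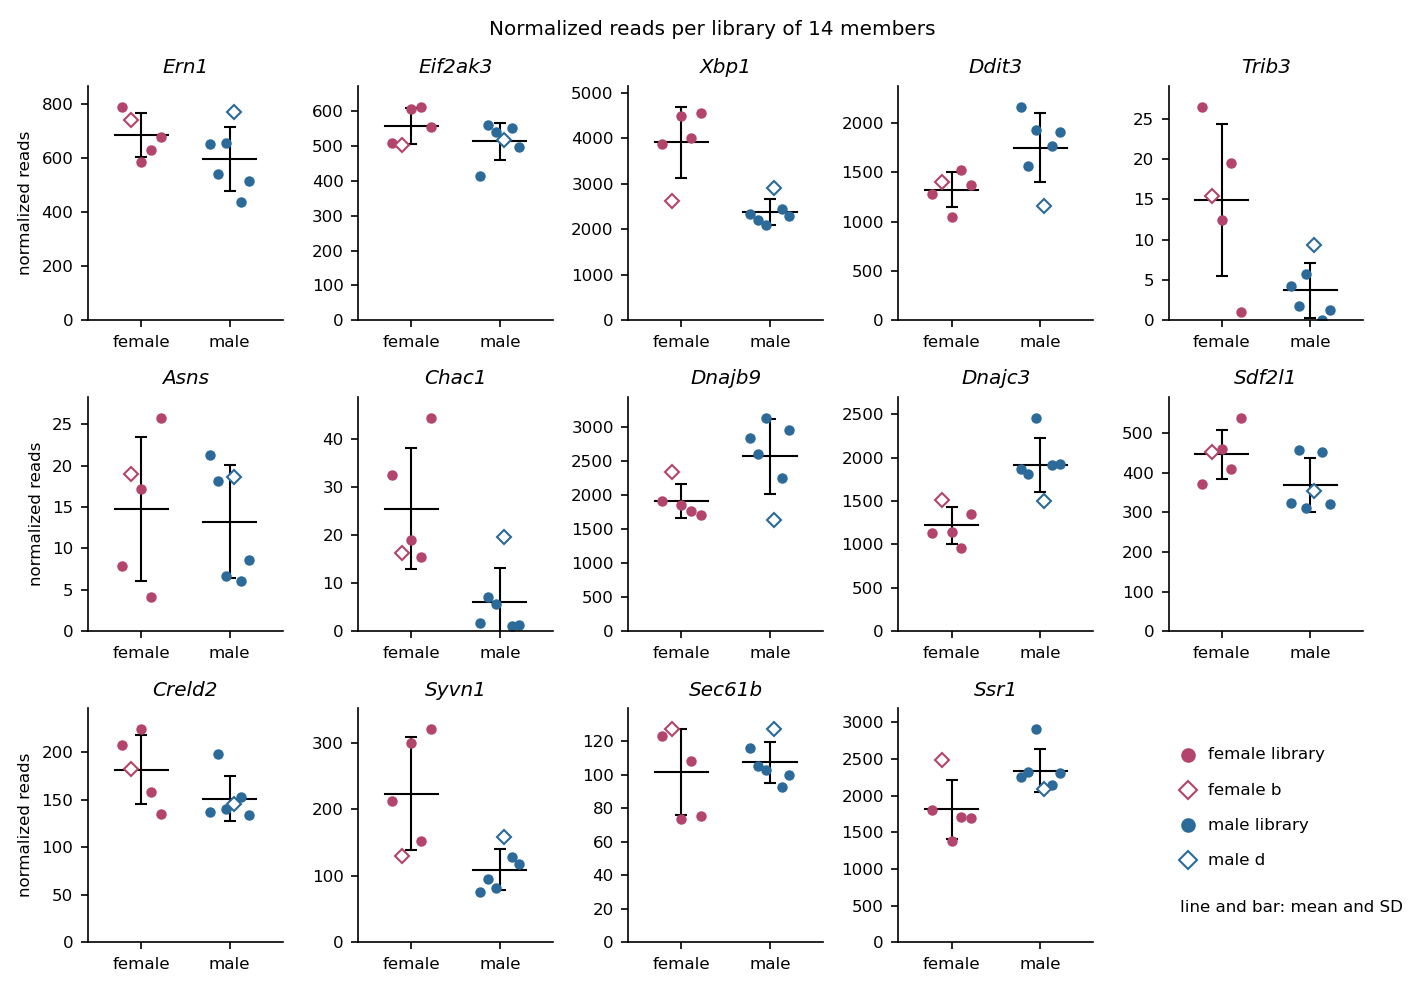
Normalized reads (vertical axis, from 0) of 14 members in 5 female and 6 male libraries, with the mean and SD; open diamonds are female b and male d. The female mean lies above the male mean for Xbp1, Syvn1, Chac1 and Trib3 and below it for Dnajc3, Ddit3, Dnajb9 and Ssr1, with male d the male library nearest to the females or among them in each.

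Of the 8 chaperones and co-chaperones, Hyou1 was higher in females, Dnajc3 was lower and 6 did not pass. Hyou1 (GRP170), a large chaperone that also exchanges the nucleotide of BiP, had means of 8513 in females and 5597 in males in the authors' deposited table, a log2 fold change of 0.60 with adjusted p 0.000741. Its approximate 95% interval was 0.34 to 0.87. Hspa5, which encodes BiP, the main ER chaperone and a common gauge of the response, had means of 25284 in females and 23955 in males in the authors' deposited table, at adjusted p 0.836. The approximate 95% interval of its log2 fold change, -0.21 to 0.37, lay for the most part below that of Hyou1. A difference between these genes was not tested. Hsp90b1, the ER form of HSP90, had means of 4250 in females and 4760 in males in the authors' deposited table, at adjusted p 0.518.

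Dnajc3 encodes P58IPK, a BiP co-chaperone that also restrains PERK. It had 1135, 1510, 1146, 964 and 1353 normalized reads in the female libraries a to e, and 1499, 1893 and 2451 at the lowest, median and highest in the males. Of the females 4 lay below every male, and female b at 1510 lay just above male d, the lowest male at 1499. Means were 1222 ± 212 in females and 1912 ± 308 in males (SD, n = 5 and 6), a log2 fold change of -0.65, with an exact permutation p of 0.00649 and adjusted p 0.00120 in the authors' deposited table. It was -0.79 without female b and male d.

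Dnajb9 (ERdj4), a J-domain partner of BiP, had 1917, 2345, 1857, 1764 and 1706 normalized reads in the females and 1641, 2728 and 3133 at the lowest, median and highest in the males. Only female b reached the range of the 5 males other than male d, and male d lay below every female. Means were 1918 ± 252 in females and 2575 ± 551 in males (SD, n = 5 and 6), with an exact permutation p of 0.0498 and adjusted p 0.0761 in the authors' deposited table, so it was not called. The log2 fold change was -0.61 without female b and male d, and the sexes then did not overlap. Dnajb9 is known as a target of spliced XBP1. Its log2 fold change of -0.43, not called, had the sign opposite to that of Xbp1. Hyou1, the member with the UPRE match, had the same sign as Xbp1 (0.60). A link of either gene to Xbp1 was not tested.

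The small secreted and lumenal cofactors showed no call. Sdf2l1, a partner of the J-domain proteins, had 372, 452, 459, 410 and 537 normalized reads in the females and 311, 338 and 458 at the lowest, median and highest in the males. Its sexes overlapped at 446 ± 61.9 in females and 370 ± 67.8 in males (SD, n = 5 and 6; exact permutation p 0.0779). Creld2, a disulfide isomerase-like protein, had 208, 182, 224, 158 and 135 normalized reads in the females and 134, 142 and 198 at the lowest, median and highest in the males. Its means were 181 ± 36.1 in females and 151 ± 23.9 in males (SD, n = 5 and 6; exact permutation p 0.126), and 3 of the 5 females lay within the male range. Manf, a secreted ER stress protein, ran from 1340 to 1754 normalized reads in the females, and its means were 1487 in females and 1440 in males in the authors' deposited table (adjusted p 0.902).

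Of the lectin chaperones, which hold glycoproteins while they fold, Canx alone was called. Canx, the membrane-bound calnexin, was lower in females, with means of 11628 in females and 17966 in males, a log2 fold change of -0.63 and adjusted p 0.00267 in the authors' deposited table. Calr, its soluble calcium-binding counterpart, had means of 27865 in females and 24841 in males in the authors' deposited table, at adjusted p 0.435. The approximate 95% intervals of the log2 fold changes, -0.93 to -0.33 for Canx and -0.09 to 0.42 for Calr, did not overlap. A difference between the genes was not tested. No reads per library were recovered for either, so their spread between animals is not shown.

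None of the 5 oxidative folding enzymes was called, and 4 of their log2 fold changes were below 0, that of P4hb being 0.03 with the sexes scaled to equal upper quartiles. P4hb, the archetypal protein disulfide isomerase, had means of 17772 in females and 17947 in males in the authors' deposited table, with an approximate 95% interval of -0.27 to 0.24 for the log2 fold change. Pdia3, the isomerase that works with calnexin and calreticulin, had means of 1878 in females and 2064 in males in the authors' deposited table (adjusted p 0.583). Ero1l, the oxidase that recharges these isomerases (Ero1a in RefSeq), ran from 797 to 1021 normalized reads in the females and had means of 888 in females and 1054 in males in the authors' deposited table (adjusted p 0.304). Pdia4 and Pdia6 had log2 fold changes of 0.09 and -0.13 with adjusted p of 0.81 and 0.652 in the authors' deposited table.

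In ERAD, all 4 members measured had log2 fold changes above 0, and Herpud1 and Syvn1 passed. Syvn1 encodes HRD1, the ubiquitin ligase at the centre of the channel. It had 213, 130, 300, 153 and 320 normalized reads in the female libraries a to e, and 75.9, 106 and 158 at the lowest, median and highest in the males. Of the females 3 lay above every male, and females b and d lay below male d, the highest male. Means were 223 ± 85.1 in females and 109 ± 31.2 in males (SD, n = 5 and 6), 2.04-fold, with an exact permutation p of 0.00866 and adjusted p 0.0195 in the authors' deposited table. The log2 fold change was 1.31 without female b and male d, against 1.03 with all libraries.

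Herpud1, a membrane protein that organizes the HRD1 complex, had means of 10008 in females and 6646 in males in the authors' deposited table, a log2 fold change of 0.59 with adjusted p 0.000926 and an approximate 95% interval of 0.33 to 0.85. Sel1l, the partner that stabilizes HRD1 and receives its substrates, ran from 1020 to 1265 normalized reads in the females and had means of 1154 in females and 1091 in males in the authors' deposited table (adjusted p 0.894). Derl1, a rhomboid-like channel protein, ran from 1307 to 1699 normalized reads in the females, with means of 1433 in females and 1207 in males in the authors' deposited table (adjusted p 0.276).

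At the translocon, Ssr1, a subunit of the translocon-associated protein complex, had 1799, 2480, 1384, 1709 and 1694 normalized reads in the females and 2091, 2284 and 2902 at the lowest, median and highest in the males. Of the females 4 lay below every male, while female b lay above 5 of the 6 males. Means were 1813 ± 404 in females and 2339 ± 291 in males (SD, n = 5 and 6), with an exact permutation p of 0.0346 and adjusted p 0.0707 in the authors' deposited table, so it was not called. Leaving out female b and male d gave a log2 fold change of -0.54, against -0.37 with all libraries, with no overlap of the sexes. Sec61b, a subunit of the channel itself, had 123, 127, 73.7, 108 and 75.1 normalized reads in the females and 92.7, 104 and 127 at the lowest, median and highest in the males. Its sexes overlapped at 101 ± 25.6 in females and 107 ± 12.3 in males (SD, n = 5 and 6; exact permutation p 0.621).

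Over the 14 members with reads in every library, 8 had an exact permutation p under 0.05 before adjustment (57.1%), 4 higher and 4 lower in females, against 34.1% of the 4591 genes with recovered reads. Those genes all have means of 50 to 700, and only 6 of the 14 members lie in that range, of which 1, Syvn1, had a p under 0.05, so the shares here and below are not of like genes. With 5 and 6 libraries the smallest p this test can give is 0.00216. Adjusted by Benjamini-Hochberg over 4599 genes, none of the 14 passed 0.05, and the smallest adjusted permutation p were 0.0622 for Xbp1, 0.0651 for Dnajc3, 0.0710 for Syvn1 and 0.0738 for Chac1. The sexes were separated without overlap in 0 of the 14, against 6.49% of those 4591 genes. In all 8 members with a p under 0.05 male d was the male nearest to the females, and in 5 of them female b was the female nearest to the males. Xbp1, Chac1, Dnajc3 and Syvn1 stayed under 0.05 with any 1 library left out. Ddit3, Trib3, Dnajb9 and Ssr1 did not, in 8, 4, 9 and 5 of the 11 cases, and reached at most 0.0857 without female c, 0.0635 without male e, 0.0952 without male f and 0.0810 without female c.

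The test behind the authors' p-values was also run again on the recovered reads, which had been chosen to return the deposited p. Adjusted over the 4599 genes, it called 3 of the 14 higher in females (Xbp1, Syvn1 and Chac1) and 1 lower (Dnajc3), against 15.5% of these genes. Without female b and male d it called 3 higher and 4 lower, against 26.0% of these genes. A clearer separation is built into leaving these libraries out. Ddit3, Dnajb9 and Ssr1 were then called lower at adjusted p of 0.00778, 0.00133 and 0.00523. With all libraries this test gave them adjusted p of 0.0639, 0.0716 and 0.0666. Without female b and male d the sexes did not overlap in 7 of the 14, against 27.0% of 4591 genes. Trib3 did not pass in either case, with adjusted p of 0.115 and 0.0764. The exact permutation p without these libraries was between 0.111 and 0.754 for Ern1, Eif2ak3, Asns, Sdf2l1, Creld2 and Sec61b.

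**Figure D3:**
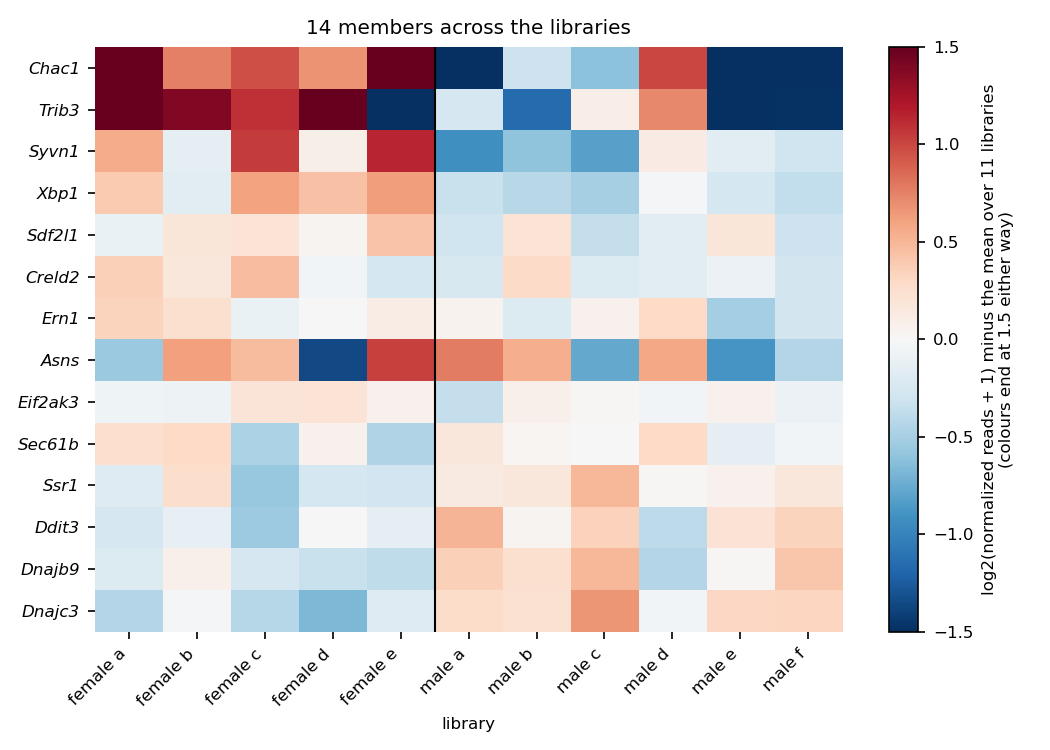
Each row is 1 of 14 members and each column 1 library, females left of the line; colour gives log2(normalized reads + 1) minus the mean of the row. Chac1, Trib3, Syvn1 and Xbp1 are red in most female columns and Dnajc3, Dnajb9, Ddit3 and Ssr1 blue, while male d has the colour of the females or is near white in these rows, as female b has that of the males for Syvn1, Xbp1 and Ssr1.

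Other genes of the pathway were taken from 5 lists of 177 genes, of which 162 were measured. Of these, 16 were higher and 16 lower in females in the authors' deposited table, 19.8% against the 14.5% of all genes, with a median log2 fold change of -0.03. Among 19 measured regulators of the IRE1 and ATF6 arms, 2 were higher and 1 lower (15.8%), with a median log2 fold change of 0.09. Those higher were Creb3l2 (0.64), an ER-anchored relative of ATF6, and Atf6b (0.56), its closest paralogue, and the one lower was Nfyb (-0.68), a subunit of the NF-Y factor that binds the CCAAT letters of ERSE, all as log2 fold changes in the authors' deposited table.

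Among 33 measured genes of PERK signalling and the wider integrated stress response, 3 were higher and 3 lower, with a median log2 fold change of 0.07. The share called was 18.2%, against 14.5% of all genes. Eif2ak2, which encodes PKR, another kinase of eIF2α, had means of 815 in females and 1566 in males and adjusted p 4.1e-05 in the authors' deposited table. Eif2s1, eIF2α itself, was lower too (log2 fold change -0.42), while Slc3a2 (0.62), an amino acid transporter chain, and Aars (0.42), alanyl-tRNA synthetase, were higher in the authors' deposited table.

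Among 45 further chaperones and folding enzymes, 6 were higher and 3 lower (9 of 45), with a median log2 fold change of -0.06. Rcn1 and Calu, calcium-binding proteins of the secretory pathway, were lower, with means of 747 and 14823 in females against 1504 and 21541 in males in the authors' deposited table, and so was the transmembrane thioredoxin Tmx1 (log2 fold change -0.76). Prkcsh, the regulatory subunit of glucosidase II, which trims glycans for the calnexin cycle, was higher at 2682 in females and 1819 in males in the authors' deposited table. The other genes called higher had larger adjusted p and are not named, while all those called lower are. Of the 9 fibroblast markers measured, 4 were called lower in females, with the sums given above. The part of fibroblasts in these values was not tested.

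Of 33 further ERAD genes, 3 were higher and 1 lower, 12.1% against 14.5% of all genes, with a median log2 fold change of -0.08. Bag6 (0.66), a chaperone of extracted proteins, Aup1 (0.44), which recruits a ubiquitin-conjugating enzyme, and Hm13 (0.50), the signal peptide peptidase, were higher, and Ube2g1 (-0.39), a ubiquitin-conjugating enzyme, was lower, as log2 fold changes in the authors' deposited table. Among 32 genes of the translocon, signal peptidase and oligosaccharyltransferase, 2 were higher and 8 lower, 31.2% against 14.5% of all genes, with a median log2 fold change of -0.11. The named ones were all lower: Sec63 (-0.56) and Sec62 (-0.53), which assist the channel, Srp54a (-0.48) of the signal recognition particle and Sec11c (-0.86), a catalytic subunit of signal peptidase, as log2 fold changes in the authors' deposited table.

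**Figure D4:**
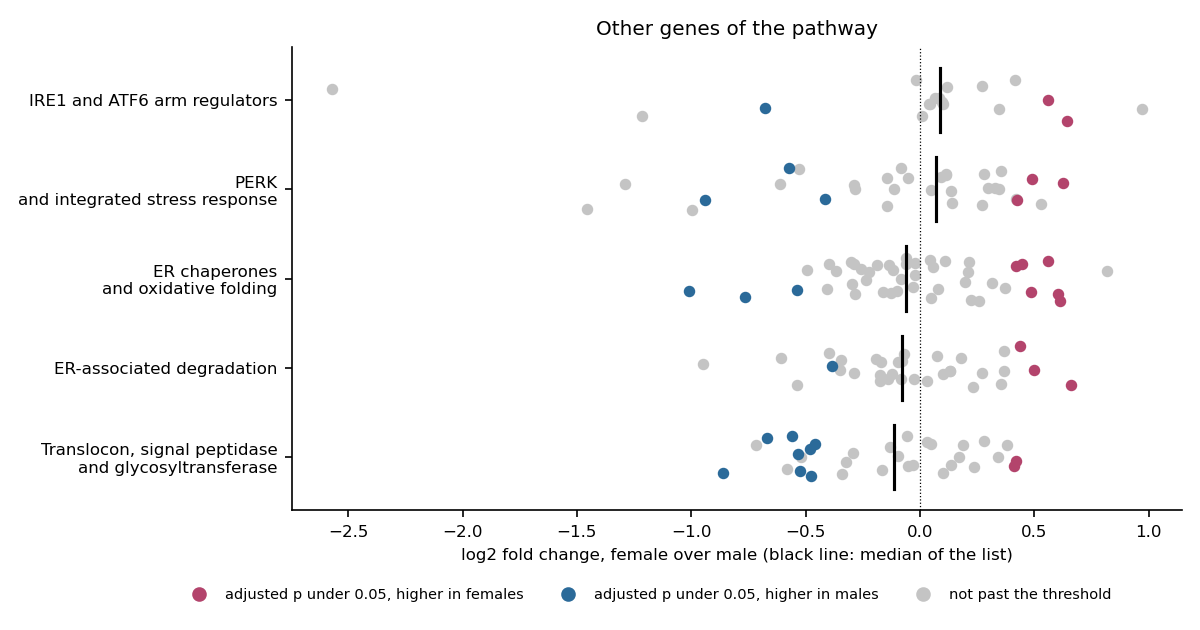
Log2 fold change, female over male, of the measured genes of 5 pathway lists (each point a gene, black lines the medians), from the authors' deposited table; 2 genes listed at 0 in males are not drawn. The medians lie between -0.11 and 0.09, and 8 of the 10 called genes of the translocon list lie below 0.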

How the data were processed

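The submitters' processing notes name TopHat2 2.0.12, HTSeq 0.6.1, Trimmomatic 0.32, FastQC and, for the authors' test, DESeq, on build rn6 of the rat; their order and settings, the annotation and counting by strand are not given in the sources used here. Libraries were ribosomal RNA-depleted, stranded, made from 650 ng of RNA (integrity number 9 or more), per the labels' protocols. The authors deposited, per the file headers, mean normalized signal (counts over size factors) for all libraries and for groups A and B, a fold change as a linear ratio, its log2 value, a p-value and an adjusted p-value. Weighting A by 6 and B by 5 gave the overall mean of all 13346 genes above 0 (relative tolerance 1e-09), and the exchanged weights did so in 0, so A was read as the males and B as the females.

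Group means are printed to 15 digits, and each adds up the whole reads of its libraries after division by their size factors. Size factors came from genes with few reads. Whole reads were then searched for (Python 3.11.15, NumPy 2.4.6, SciPy 1.17.1) and kept where 1 set alone returned both means and the deposited p (tolerance 2e-11 on its z), which needs a negative binomial exact test with the larger of a gene's own dispersion and the trend 0.0218 + 7.122/mean. This succeeded for 4591 of 4646 genes with a mean of 50 to 700 and for 14 of the 22 members searched (means up to 3200), and for 6 more in females; 8 members with higher means were not searched. Digits shifted on purpose gave a single solution in 0 of 400 genes and 0 of 120 trials on members. Xbp1 and Dnajb9, which have the highest means of the recovered members, were not among these trials. On simulated data with means of 50 to 700, 80 of 80 genes gave a single solution, and with means of 700 to 2000, 25 of 40 did, all holding the true reads; other means were not simulated. Library totals are not given by the file, so depth is known for these genes only.

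Sexes were compared by the authors' adjusted p under 0.05 and, for reads per library, by an exact permutation test (two-sided, difference of means, 462 splits). Approximate 95% intervals are the log2 fold change ± 1.96 standard errors from the dispersion, which for members without reads per library was the trend or, where larger, the one their p needs. Members were matched by symbol and all are named; of each pathway list, up to 4 called genes with the smallest adjusted p and a mean of at least 50 are named, with any called gene of at least 2-fold. Members and lists were chosen with earlier results of these data known. Recovering reads was planned for members; its use for other genes, the test redone on them, and leaving out female b and male d were added after the data were seen. Levels were not compared between genes, as no lengths were used. Promoter sequences are RefSeq's, build GRCr8, and no coordinates of rn6 were used.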

Additional observations from a re-analysis of the deposited data

Results flagged for a closer look

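Within a sex, 3 libraries stood far from the others of their sex for 1 member each, among 34 groups of libraries examined by Dixon's criterion at the 95% level, which chance passes in about 1 in 20 groups. Male d held 19.6 normalized reads of Chac1, and the next male held 7.24. Male b held 198 normalized reads of Creld2, and the next male held 153. Male c held 2902 normalized reads of Ssr1, and the next male held 2323.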

How the results depend on the processing

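The counts of called members kept within 1.5 times of 5 higher and 2 lower in females, except for 3 higher at an adjusted p under 0.01 and 5 lower at an adjusted p under 0.1. Among the pathway genes, against 16 higher and 16 lower, there were 4 higher and 4 lower at an adjusted p under 0.01, and 5 higher and 6 lower with a fold of at least 1.5 asked for as well. Adjusting p again over genes with a mean of at least 10 or 50 left these counts within 1.5 times. No called member changed sign under the 3 other scalings or the pseudocounts of 1 and 10, and only Chac1 and Trib3 moved by more than 1 standard error, towards 0, with a pseudocount of 10. By the exact permutation test, 4 members were higher and 4 lower in females; with 1 library left out at a time 3 to 5 were higher and 1 to 4 lower, and on whole reads without size factors 1 was lower. The 4 changes of sign were in genes that did not pass: Asns without female e (p 0.676), and Sec61b without female c (0.933), without female e (0.957) and on whole reads (0.989). Over single libraries left out, p ran from 0.338 to 0.976 for Asns and from 0.329 to 0.957 for Sec61b. Without female b and male d the table's test redone on the reads called 4 members lower in females in place of 1. A clearer separation is built into leaving them out. The causes were not tested. No paired analysis was possible because the table's columns carry no replicate numbers. The reads limit Asns, Trib3 and Chac1 most, with means under 50, and for 10 members no library values of either sex could be given, so their spread between animals is not shown.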
